A study of Sus scrofa with 13 samples.

Results

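Heart and skeletal muscle of the pig shared 27 Ensembl genes that were at low levels in most other organs sequenced. The genes were selected on measured values, the expression levels in RPKM (reads scaled by the length of the feature and the total reads of the library). A gene was kept with at least 5 RPKM in heart and in longissimus dorsi of day 240, a heart to muscle ratio between 0.2 and 5, less than 1 RPKM in each of liver, spleen, lung, kidney, testis and ovary, and a ratio of the highest to the lowest of 3 muscle stages under 4. Of 21607 Ensembl genes listed, 27 were kept. ANK1 met these limits and FHL1 did not, and both were left out by the rule. Adipose tissue and both RNA mixtures played no part in the choice.

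The data came from total RNA of 13 libraries, and each group was 1 library. In Guizhou mini-pigs, a small Chinese breed, adipose tissue, heart, both kinds of gonad (testis, ovary), kidney, lung, spleen and liver were sampled at an age of 240 days. Longissimus dorsi, the long skeletal muscle of the back, was taken at 0, 30 and 240 days after birth. The tissue mixture and the muscle mixture held RNA from multiple breeds and time points, the former from multiple tissues and the latter from longissimus dorsi. No treatment or genetic change was given for any library. Ribosomal RNA was removed from all of them, and the libraries were strand-specific by a SMART or dUTP protocol, with no note of which library had which. The number of animals behind a library is not given in the sources used here, and breed, age, protocol and library cannot be told apart between the mixtures and the single tissues. With 1 library per group no test between conditions was possible, and a difference has no replicate check. Intervals are 95% exact Poisson intervals of the reads, or exact intervals of a ratio of reads, and cover counting error only.

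Heart and skeletal muscle are both striated muscle. Their cells are filled with myofibrils, chains of sarcomeres in which thin actin filaments slide along thick myosin filaments. The thin filaments are anchored in Z-discs, calcium released from the sarcoplasmic reticulum starts contraction by binding to troponin C, and creatine kinase at the mitochondria passes energy on to the filaments. Many sarcomere proteins have one form in heart and another in fast skeletal muscle, and others are common to both.

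The libraries were checked against marker genes of their tissue. The 8 matched cardiomyocyte markers of 12 listed summed to 8970 RPKM in heart and to between 2.39 and 29.3 RPKM in the other organs and adipose tissue. In muscle of day 240 they summed to 775 RPKM, of which the atrial myosin heavy chain MYH6 made up 768 RPKM. MYH6 is nearly identical to other myosin genes, so its reads in muscle are uncertain. The 6 matched skeletal fibre markers of 14 listed summed to 14393 RPKM in muscle of day 240 and to 549 RPKM in heart, of which the skeletal actin ACTA1 made up 538 RPKM. Markers of the labelled tissue were thus present in heart and in muscle. In bulk tissue, fewer cells of a type and less RNA per cell cannot be told apart.

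The depth differed between libraries. In the single-tissue libraries 3620348 to 12394421 reads were counted on the listed features. The tissue mixture had 32507136 counted reads and the muscle mixture 18656109. Counted reads were 38.0% of the recovered total in ovary and 32.1% in testis, but 11.6% in spleen and 11.8% in liver. The RPKM of all features summed to 214285 in ovary and 190421 in testis, but to 61672 in spleen and 65828 in liver. The least covered of the 27 genes had 182 reads in heart and 196 reads in muscle of day 240. At day 30 the lowest was 46 reads, for NT5C1A.

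The 27 genes took up a small share of the counted reads in striated muscle. Their RPKM summed to 2984 in heart, 2198 at day 0, 2024 at day 30 and 3482 at day 240. This was 2.16%, 2.28%, 3.003% and 3.38% of the counted reads. In the tissue mixture the sum was 1535 RPKM with 0.742% of the reads, and in the muscle mixture it was 3523 RPKM with 2.14%. In the 6 organs limited by the rule, the sum ranged from 2.29 RPKM in liver to 6.76 RPKM in testis. Single genes carried much of the sum. TNNC1 gave 47.2% of it in heart, and ENSSSCG00000025268 gave 46.4% of it at day 240.

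**Figure D1:**
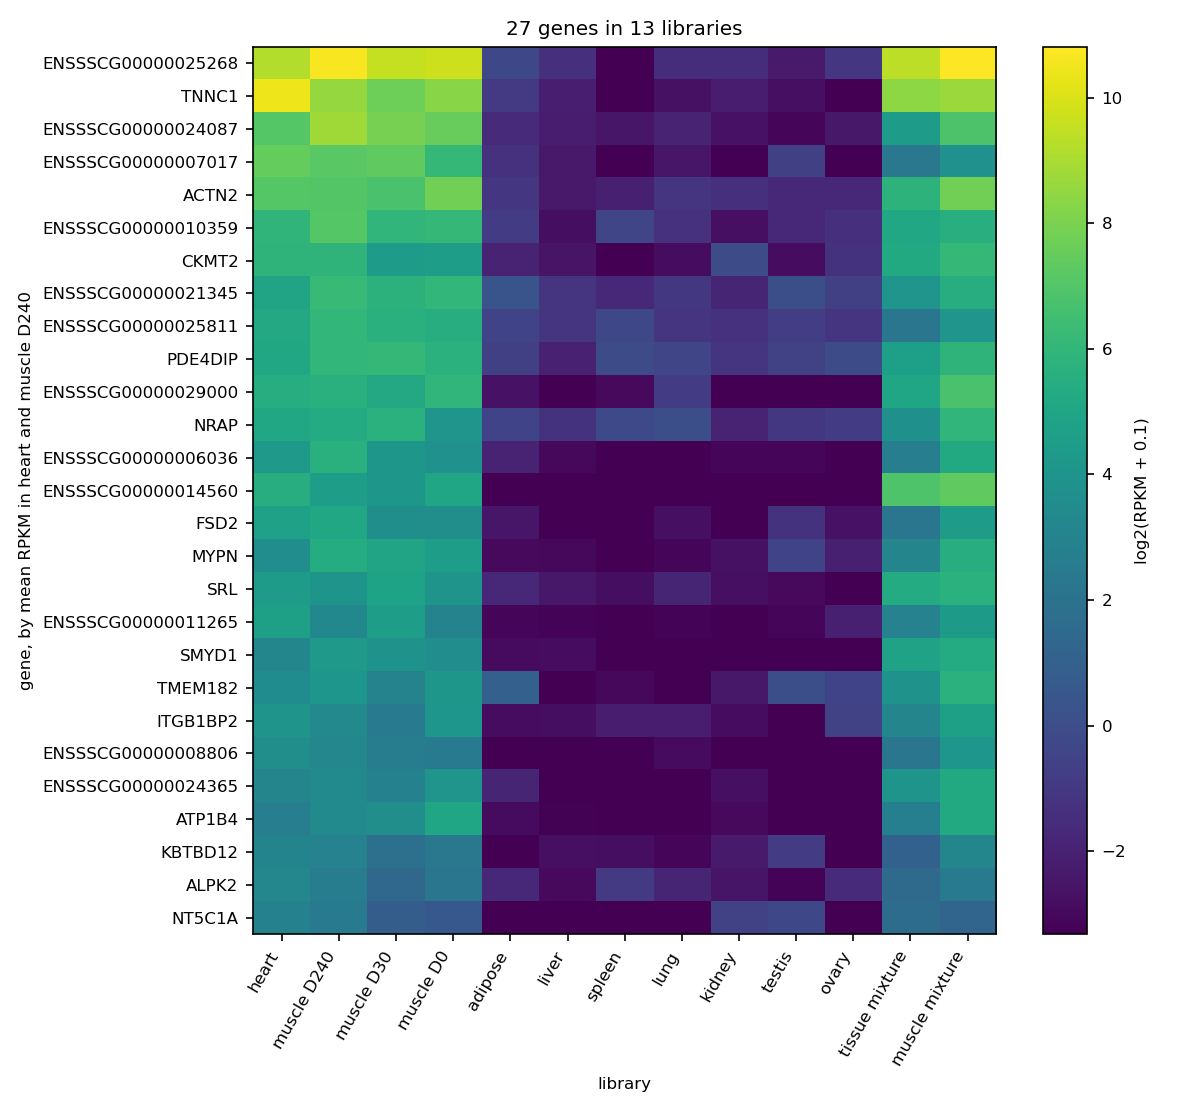
Levels of the 27 genes (rows, by mean of heart and muscle of day 240) in the 13 libraries (columns), as log2(RPKM + 0.1) by colour, 1 library per column. In every row, heart, the 3 muscle stages and both mixtures are above the 6 other organs and adipose tissue, down to 1.39 RPKM for NT5C1A at day 0, while no gene is above 1.91 RPKM (TMEM182) in adipose tissue.

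Of the 27 genes, 15 had a symbol in the table of gene names and 12 did not, against 11654 of all 21607 Ensembl genes. Of the 15, 14 were found by symbol in the RefSeq annotation, and all 14 were protein coding there. The 12 others are given by identifier, and nothing is said of their products. The features were 336 to 6453 nucleotides long, as recovered from the values, with a median of 1408 nucleotides. For all 17703 Ensembl genes above 0 in at least 4 libraries the median was 1823 nucleotides.

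TNNC1 (ENSSSCG00000011441), the troponin C of heart and slow skeletal muscle that binds the calcium, was the only gene kept of the 13 matched to an identifier from a list of 19 thin filament genes. Its level was 1408 RPKM in heart (1391 to 1426) and 383 RPKM in muscle of day 240 (374 to 393), after 318 RPKM at day 0 and 203 RPKM at day 30. It was 344 RPKM in the tissue mixture, 407 RPKM in the muscle mixture, 0.426 RPKM in adipose tissue and at most 0.131 RPKM (2 reads, in liver) in the other organs. Heart was thus above every other library, and the 3 stages were 1.89-fold apart. The heart to muscle ratio of 3.67 (3.57 to 3.78) was the highest among the 27 genes.

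The list of Z-disc and titin genes gave 3 genes. ACTN2 (ENSSSCG00000010144) encodes a sarcomeric alpha-actinin, which cross-links actin filaments at the Z-disc. It had 137 RPKM in heart (135 to 138) and 224, 109 and 129 RPKM in muscle at day 0, 30 and 240, with 56.9 RPKM in the tissue mixture and 223 RPKM in the muscle mixture. Adipose tissue had 0.373 RPKM, and lung was the highest other organ with 0.358 RPKM. As deposited, heart and muscle of day 240 were almost level for ACTN2, with a ratio of 1.06 (1.04 to 1.08), and day 0 was the highest stage.

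MYPN (ENSSSCG00000029311) encodes myopalladin, which links alpha-actinin to other Z-disc proteins. Its level was 11.8 RPKM in heart (11.3 to 12.4), and 24.3, 30.0 and 43.3 RPKM at day 0, 30 and 240. The tissue mixture had 8.44 RPKM and the muscle mixture 43.9 RPKM, while testis was the highest other organ at 0.621 RPKM and adipose tissue had 0.0267 RPKM. MYPN was low in heart against all 3 stages, and its heart to muscle ratio of 0.274 (0.259 to 0.289) was the lowest of the 27.

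NRAP (ENSSSCG00000010640), a nebulin-related protein that takes part in the assembly of myofibrils, had 35.4 RPKM in heart (34.4 to 36.4). In muscle it had 16.6, 52.3 and 41.3 RPKM at day 0, 30 and 240. It had 13.6 RPKM in the tissue mixture, 62.3 RPKM in the muscle mixture, 0.615 RPKM in adipose tissue and up to 0.958 RPKM in lung. Heart lay within the range of the muscle stages for NRAP, and day 0 was the low stage.

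SRL (ENSSSCG00000007949) encodes sarcalumenin, a calcium-binding protein of the sarcoplasmic reticulum. It had 21.3 RPKM in heart (20.3 to 22.2) and 16.0, 29.1 and 15.6 RPKM at day 0, 30 and 240. The tissue mixture had 40.8 RPKM and the muscle mixture 51.5 RPKM, against 0.211 RPKM in adipose tissue and at most 0.174 RPKM in the other organs. Both mixtures were above all single tissues for this gene.

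CKMT2 (ENSSSCG00000014128), the mitochondrial creatine kinase of striated muscle, had 58.9 RPKM in heart (56.8 to 61.0) and 58.1 RPKM in muscle of day 240 (55.9 to 60.3). At day 0 it had 24.4 RPKM and at day 30 it had 21.3 RPKM, and the tissue and muscle mixtures had 37.6 and 67.7 RPKM. In kidney it reached 0.840 RPKM, and in adipose tissue 0.169 RPKM. In the values as deposited, heart and adult muscle did not differ beyond counting error for CKMT2, with a ratio of 1.01 (0.962 to 1.07).

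NT5C1A (ENSSSCG00000003662), a cytosolic nucleotidase that makes adenosine from AMP, was the lowest of the set by its mean in heart and adult muscle. It had 7.31 RPKM in heart (6.49 to 8.20) and 1.39, 1.70 and 5.42 RPKM at day 0, 30 and 240. The mixtures had 3.04 RPKM (tissues) and 2.35 RPKM (muscle), testis had 0.749 RPKM, kidney 0.596 RPKM and adipose tissue 0 reads. Among the 27 genes it had the steepest rise between day 0 and day 240, with a ratio of 3.90 (2.88 to 5.36).

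SMYD1 (ENSSSCG00000008215), a lysine methyltransferase of striated muscle needed for the assembly of myosin filaments, had 8.89 RPKM in heart (7.84 to 10.04). In muscle it had 12.1, 14.5 and 19.97 RPKM at day 0, 30 and 240. The tissue mixture had 28.0 RPKM, the muscle mixture 41.6 RPKM and adipose tissue 0.0326 RPKM from 1 read. Liver was the highest other organ with 0.0399 RPKM, also from 1 read. Among heart, muscle and mixtures the level was thus lowest in heart and highest in the mixtures.

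KBTBD12 (ENSSSCG00000011622), a kelch repeat and BTB domain protein, had 8.08 RPKM in heart (7.41 to 8.79) and 4.89, 3.67 and 7.56 RPKM at day 0, 30 and 240. The mixtures had 2.03 RPKM (tissues) and 8.74 RPKM (muscle), and testis had 0.471 RPKM. As deposited, heart and adult muscle did not differ beyond counting error here either, with a ratio of 1.07 (0.942 to 1.21).

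At the membrane, ITGB1BP2 (ENSSSCG00000022209), or melusin, binds the tail of an integrin. It had 15.7 RPKM in heart (14.2 to 17.3) and 17.3, 5.72 and 9.83 RPKM at day 0, 30 and 240. It had 8.48 RPKM in the tissue mixture, 25.6 RPKM in the muscle mixture, 0.0363 RPKM (1 read) in adipose tissue and up to 0.569 RPKM in ovary. Heart and newborn muscle lay close, and day 30 was the low stage.

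ATP1B4 (ENSSSCG00000012606) is related to the beta subunits of the sodium pump, and in placental mammals its protein is found at the inner nuclear membrane. It had 6.42 RPKM in heart (6.02 to 6.84), the lowest heart level of the set, and 31.6, 12.5 and 10.7 RPKM at day 0, 30 and 240. The tissue mixture had 6.64 RPKM and the muscle mixture 37.8 RPKM, with 0.0313 RPKM in adipose tissue. It was the only gene of the 27 with the highest level at day 0 and the lowest at day 240.

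The other 4 named genes were ALPK2, FSD2, TMEM182 and PDE4DIP. ALPK2 (ENSSSCG00000004918), an alpha kinase, had 9.05 RPKM in heart (8.67 to 9.45), 4.53, 2.61 and 6.07 RPKM at day 0, 30 and 240, and 2.88 and 5.55 RPKM in the tissue and muscle mixtures. FSD2 (ENSSSCG00000001806), a protein with fibronectin and SPRY domains, had 26.7 RPKM in heart (25.6 to 27.8), 12.8, 12.9 and 34.3 RPKM at the 3 stages, and 4.53 and 21.5 RPKM in the mixtures. Both genes were highest in the pair of tissues of day 240 that the rule used. TMEM182 (ENSSSCG00000008150), a transmembrane protein, had 11.8 RPKM in heart (10.8 to 12.8), 17.9, 7.83 and 16.8 RPKM at the 3 stages, and 14.4 and 51.7 RPKM in the mixtures. PDE4DIP (ENSSSCG00000024481), or myomegalin, which anchors a phosphodiesterase, had 34.2 RPKM in heart (33.2 to 35.3), 52.0, 68.6 and 64.8 RPKM at the 3 stages, and 24.6 and 57.2 RPKM in the mixtures. PDE4DIP varied little over the 3 stages, with a highest to lowest ratio of 1.32, and TMEM182 had its muscle mixture far above its other libraries.

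Among the 12 genes without a symbol, ENSSSCG00000025268 was the most abundant of the set in muscle. It had 584 RPKM in heart (578 to 591), 852, 769 and 1616 RPKM at day 0, 30 and 240, and 672 and 1791 RPKM in the tissue and muscle mixtures. ENSSSCG00000024087 followed with 135 RPKM in heart (134 to 137), 186, 237 and 448 RPKM at the 3 stages, and 21.6 and 118 RPKM in the mixtures. Both were highest at day 240 among the stages, but only the former kept that level in the muscle mixture. ENSSSCG00000007017 had 179.9 RPKM in heart (172 to 187), 66.8, 166 and 145 RPKM at the 3 stages, and no more than 4.88 and 14.3 RPKM in the mixtures. ENSSSCG00000010359 had 60.03 RPKM in heart (58.3 to 61.7), 68.6, 63.8 and 133 RPKM at the 3 stages, and 33.5 and 46.1 RPKM in the mixtures. For both, the mixtures were below heart and each stage.

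ENSSSCG00000014560 was the only gene of the set with 0 reads in all 6 limited organs and in adipose tissue. A count of 3 reads would have given between 0.231 RPKM in testis and 0.412 RPKM in ovary. It had 45.2 RPKM in heart (41.5 to 49.1), 31.4, 17.5 and 24.3 RPKM at day 0, 30 and 240, and 119 and 161 RPKM in the tissue and muscle mixtures. At 336 nucleotides it was the shortest of the set, and its reads ranged from 144 at day 30 to 4320 in the tissue mixture. ENSSSCG00000029000 had 44.6 RPKM in heart, 62.3, 37.2 and 50.7 RPKM at the stages, and 33.1 and 109.6 RPKM in the mixtures. ENSSSCG00000024365 had 8.60 RPKM in heart, 16.5, 7.17 and 10.5 RPKM at the stages, and 15.8 and 37.9 RPKM in the mixtures. All 3 genes had their highest level in the muscle mixture.

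The remaining 5 covered a range of levels. ENSSSCG00000021345 had 29.9 RPKM in heart, 64.6, 54.3 and 74.0 RPKM at the stages, and 16.2 and 43.8 RPKM in the mixtures. ENSSSCG00000025811 had 37.5 RPKM in heart, 43.8, 49.7 and 65.1 RPKM at the stages, and 4.65 and 16.2 RPKM in the mixtures. In both, heart was below each muscle stage. ENSSSCG00000006036 had 19.5 RPKM in heart, 14.1, 17.8 and 50.9 RPKM at the stages, and 6.55 and 38.2 RPKM in the mixtures. ENSSSCG00000011265 had 25.8 RPKM in heart, 7.80, 23.6 and 9.60 RPKM at the stages, and 7.73 and 20.6 RPKM in the mixtures. Among the stages, the former stood out at day 240 and the latter at day 30. ENSSSCG00000008806 had 12.6 RPKM in heart, 5.83, 5.97 and 9.10 RPKM at the stages, and 4.66 and 17.3 RPKM in the mixtures.

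The low levels outside striated muscle were set by the rule and are given as a description. Over the 27 genes and 6 organs, 54 of 162 values were 0, and no value rested on more than 128 reads. Spleen had 14 of the 27 genes at 0, ovary 12, and liver, lung, kidney and testis 7 each. The floor of detection was set here at 3 reads, which is 0.0120 to 0.412 RPKM, depending on gene and library. Values from fewer reads are given but lie below that floor. For 6 genes no organ had more than 2 reads, among them TNNC1 and SMYD1. Several other genes came close to the limit, such as NRAP in lung, TMEM182 in testis and PDE4DIP in ovary with 0.958, 0.944 and 0.890 RPKM.

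Adipose tissue was free in the rule and followed the 6 organs for most of the genes. Its levels ran from 0 for NT5C1A, KBTBD12, ENSSSCG00000008806 and ENSSSCG00000014560 to 1.91 RPKM for TMEM182 (1.54 to 2.34, 93 reads), with a median of 0.180 RPKM. TMEM182 and ENSSSCG00000021345, at 1.15 RPKM (0.800 to 1.61, 34 reads), were the only 2 of 27 genes with at least 1 RPKM. Over all Ensembl genes 33.6% reached that level in adipose tissue. Among the 1334 genes with at least 5 RPKM in heart and in muscle of day 240, the share was 92.1%. The rule's limits on 6 organs favour genes of narrow expression, so the lower share of the 27 genes was not tested. With RPKM scaled to the same total, 5 of the 27 genes reached 1 RPKM.

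The sum of the 27 genes in adipose tissue was 8.55 RPKM, above each of the 6 organs. The 6 skeletal fibre markers summed to 11.4 RPKM there, with 5 of 6 above 0 and PVALB at 0, against 0.196 to 3.23 RPKM in the 6 organs. The fast skeletal troponin C TNNC2 made up 8.11 RPKM of it. The 8 cardiomyocyte markers summed to 2.70 RPKM. The part of these markers' cells in the adipose values was not tested.

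**Figure D2:**
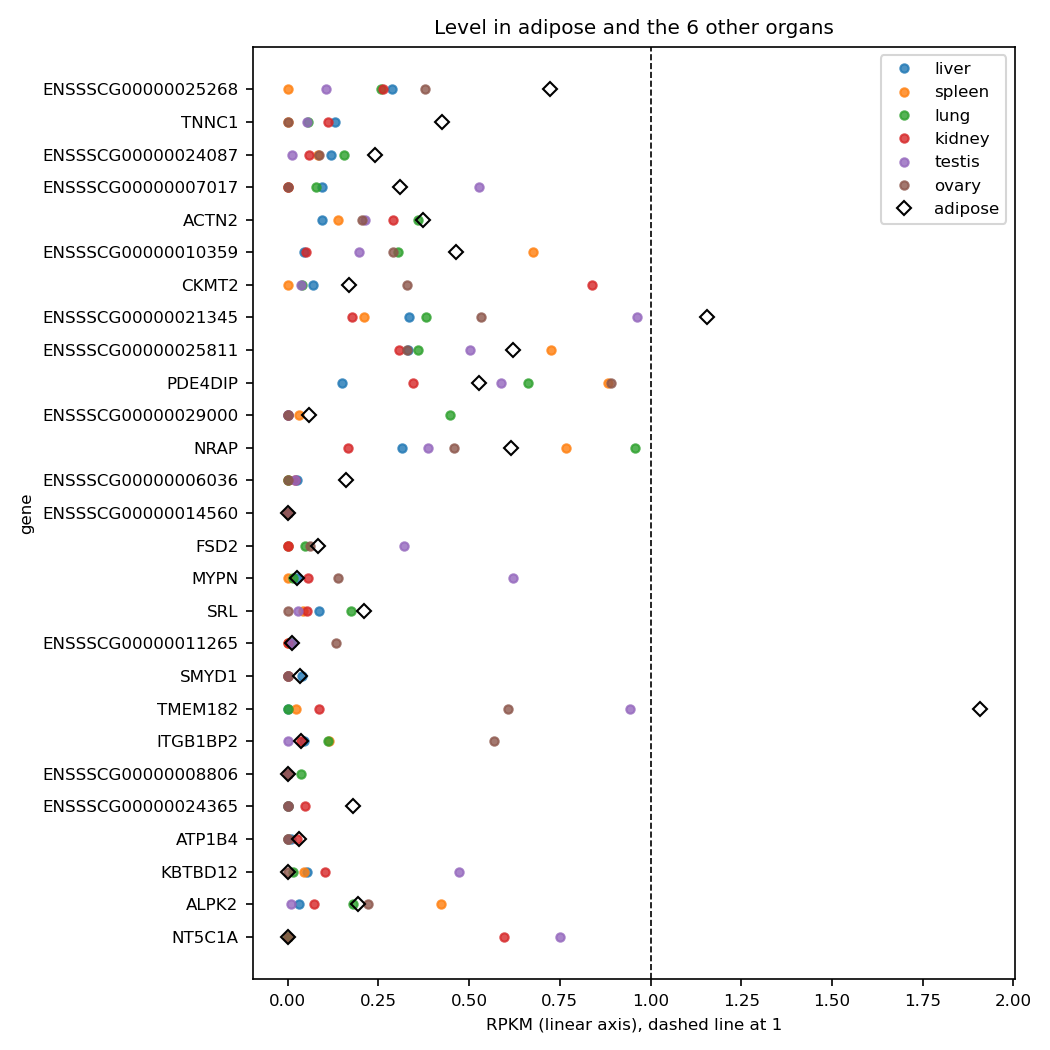
RPKM (linear axis) of the 27 genes in adipose tissue (open diamonds) and in the 6 organs limited by the rule (dots), 1 library each, with a dashed line at 1 RPKM. Only the diamonds of TMEM182 at 1.91 RPKM and ENSSSCG00000021345 at 1.15 RPKM lie right of the line.

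Heart and muscle of day 240 were compared over the 27 genes as a description, since the rule limits their ratio. The ratio ranged from 0.274 for MYPN to 3.67 for TNNC1. As deposited, it was above 1 in 12 genes and below 1 in 15, and the shares of all genes were not counted. For KBTBD12, CKMT2 and ENSSSCG00000024365 its interval included 1. Scaling multiplies all these ratios by the same factor, which the intervals do not cover. The median of heart minus muscle over the 27 genes was -0.22 on the log2 scale as deposited. It was -0.11 with RPKM scaled to the same total and -0.85 with scaling by the median ratio. On the log2(RPKM + 0.1) scale, TNNC1 and ENSSSCG00000011265 were at least 2-fold higher in heart, with ratios of 3.67 and 2.69 (2.55 to 2.83). Over all 7798 Ensembl genes with at least 1 RPKM in either library, 36.1% were.

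At least 2-fold lower in heart were 7 genes, against 12.3% of all genes. These were MYPN, SMYD1, ENSSSCG00000006036, ENSSSCG00000010359, ENSSSCG00000021345, ENSSSCG00000024087 and ENSSSCG00000025268, with heart to muscle ratios of 0.274 to 0.450. With RPKM scaled by the median ratio, 11 genes were at least 2-fold lower in heart and 1 was higher. SMYD1 had a ratio of 0.445 (0.382 to 0.517) and ENSSSCG00000024087 of 0.302 (0.298 to 0.306). The median difference of heart minus muscle was -0.22 on the log2 scale over the 27 genes and 0.53 over all genes, so the 27 genes lay 0.75 below the median of all genes. The median of all genes moved by over 0.1 (log2) in every pair of libraries compared here. The order of the 27 genes was similar in both tissues, with a Spearman correlation of 0.85 across genes, which are not independent replicates.

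**Figure D3:**
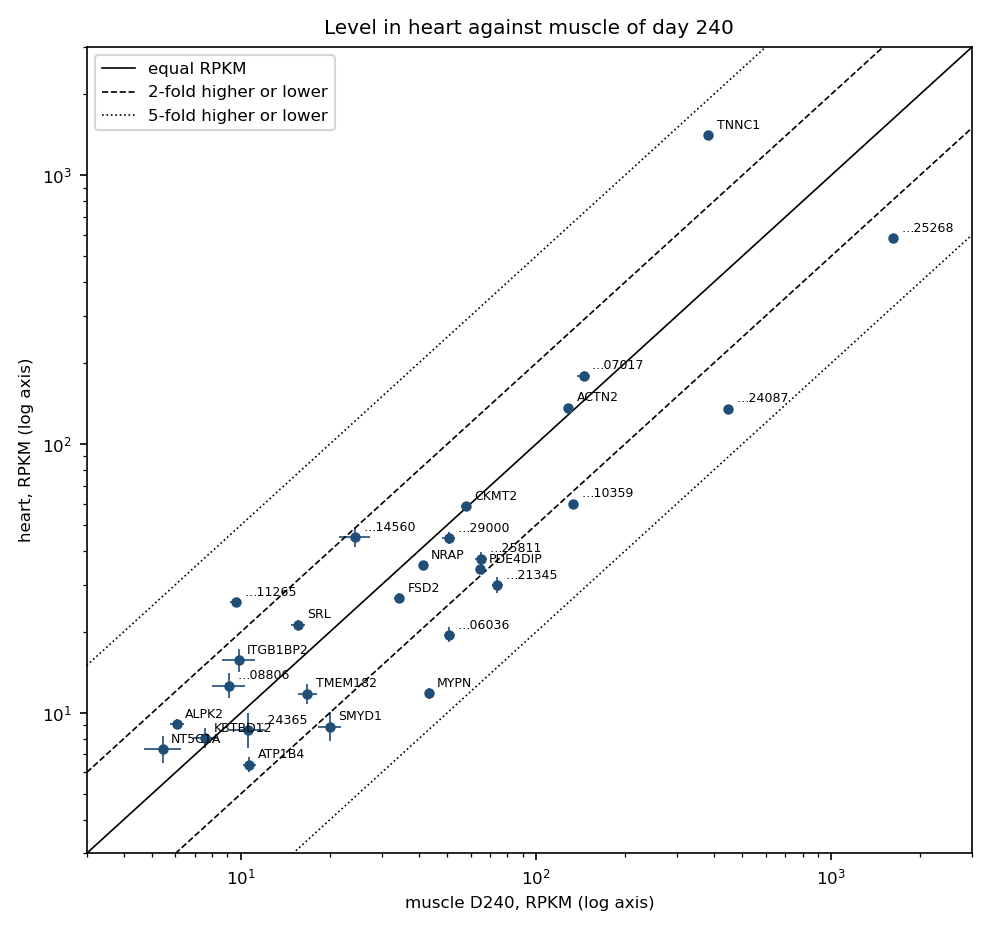
RPKM in heart against RPKM in muscle of day 240 (both log axes) for the 27 genes, with bars for the 95% counting interval. Lines mark equal levels, 2-fold and 5-fold, and identifiers are shortened to their last 5 digits. TNNC1 lies farthest above the line of equal levels and MYPN farthest below it.

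The 3 muscle stages were limited by the rule to a ratio under 4, and the floor of 5 RPKM was set at day 240 only. The floor favours genes that are high at day 240, so the counts by stage are a description. Day 240 was highest for 15 of the 27 genes, day 0 for 7 and day 30 for 5. Over all genes with at least 1 RPKM at any stage the shares were 20.8%, 65.7% and 13.5% in the same order. Among the 1334 genes with 5 RPKM in heart and muscle of day 240 they were 31.8%, 63.0% and 5.25%. The count at day 240 depended on scaling. It was 10 genes with RPKM scaled to the same total and 19 with scaling by the median ratio. As deposited, the 15 genes highest at day 240 had their low point at day 0 in 8 cases and at day 30 in 7.

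Between day 0 and day 240, 7 of the 27 genes were at least 2-fold higher at day 240, against 7.46% of all genes and 8.32% of those above the floor. The ratio was 3.90 for NT5C1A, 3.60 for ENSSSCG00000006036 (3.30 to 3.93), 2.68 for FSD2 (2.50 to 2.89) and 2.49 for NRAP (2.37 to 2.62). With scaling by the median ratio 18 genes reached 2-fold. As deposited, the ratio was 2.41 for ENSSSCG00000024087, 2.38 for CKMT2 and 2.17 for ENSSSCG00000007017. These genes reached the 2-fold limit by different courses. FSD2 and CKMT2 were still low at day 30, while NRAP and ENSSSCG00000007017 were already at their highest then.

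At least 2-fold lower at day 240 was 1 gene, ATP1B4, with a ratio of 0.338 (0.319 to 0.359), against 37.1% of all genes and 20.8% of those above the floor. With scaling by the median ratio no gene reached 2-fold lower. ACTN2, with 0.574 (0.564 to 0.584), and ITGB1BP2, with 0.570 (0.484 to 0.668), also had intervals below 1 but did not reach 2-fold. For SRL and TMEM182 the interval included 1. As deposited, the ratio lay above 1 in 19 genes and below 1 in 8, and the shares of all genes were not counted. The median difference of day 240 minus day 0 was 0.57 on the log2 scale for the 27 genes and -0.69 for all genes, a distance of 1.26. For the 27 genes it was 0.49 with RPKM scaled to the same total and 1.33 with scaling by the median ratio. The 6 matched skeletal fibre markers summed to 7158, 6857 and 14393 RPKM at day 0, 30 and 240. TNNC2 made up 4717, 2877 and 10378 RPKM of these sums, and ACTA1 2012, 3183 and 2998 RPKM. The 3 matched markers of slow fibre and heart, among them TNNC1 of the set, summed to 879, 307 and 653 RPKM. The part of either list in the result was not tested.

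**Figure D4:**
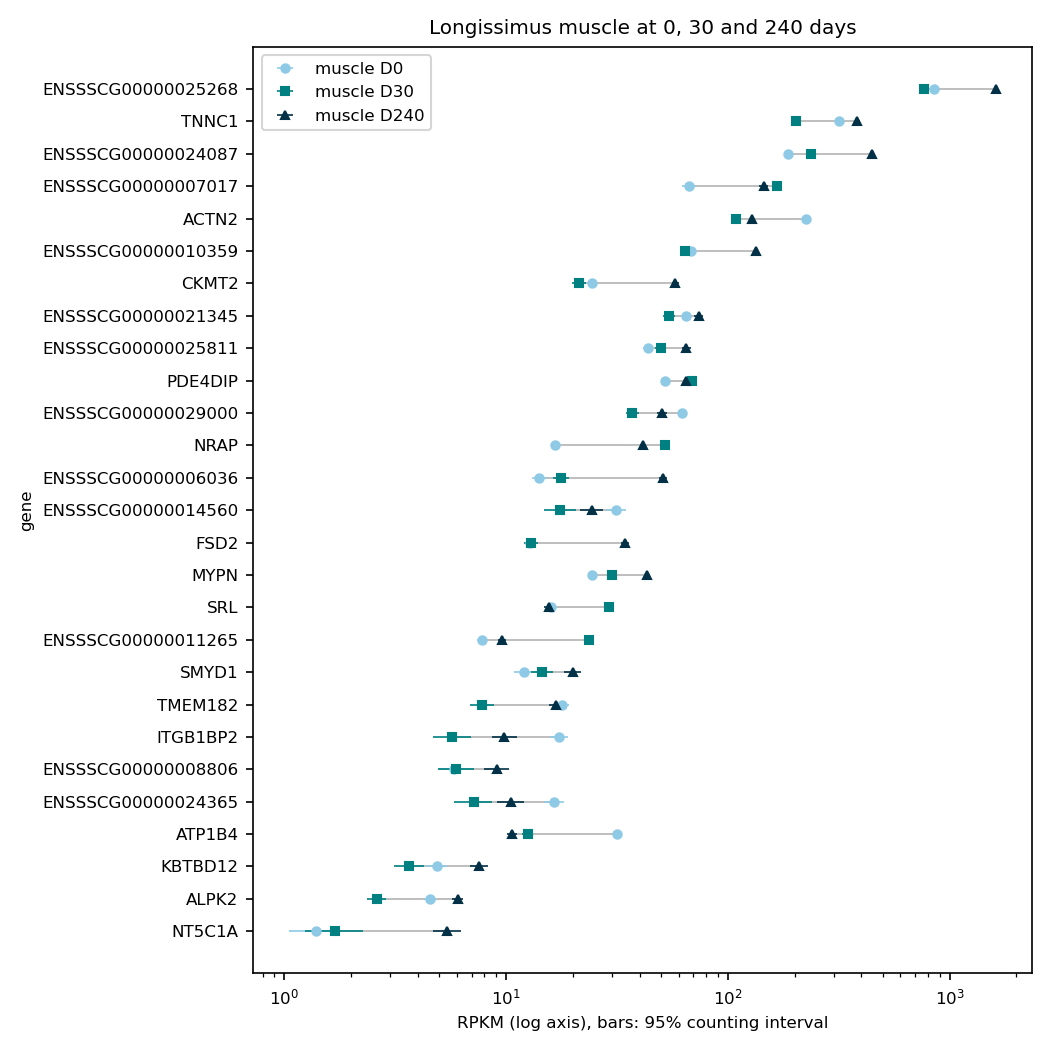
RPKM (log axis) of each gene in longissimus dorsi at day 0 (circles), day 30 (squares) and day 240 (triangles), with bars for the 95% counting interval and 1 library per stage. The triangle is rightmost for 15 of 27 genes, and ATP1B4 is the only gene with circle, square and triangle in falling order.

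The mixtures were not used to choose the genes. The rule, however, asked for a level in longissimus dorsi and for low levels in 6 organs. It thus favoured genes higher in the muscle mixture, and the counts are a description. In the muscle mixture 26 of the 27 genes were above the tissue mixture, while the median over all genes was below it. By at least 2-fold it was 19 genes, against 7.14% of all genes and 22.1% of those above the floor in heart and muscle of day 240. No gene was at least 2-fold lower, against 41.4% of all genes. The ratio was highest for ENSSSCG00000006036 with 5.83 (5.42 to 6.28), ATP1B4 with 5.70 (5.47 to 5.93), ENSSSCG00000024087 with 5.48 (5.38 to 5.59) and MYPN with 5.21 (5.01 to 5.41). The muscle mixture was close to the tissue mixture for TNNC1, with 1.18 (1.16 to 1.21), and SRL, with 1.26 (1.229 to 1.299). NT5C1A was lower in the muscle mixture, with 0.772 (0.639 to 0.931). The median difference of muscle minus tissue mixture was 1.53 on the log2 scale for the 27 genes and -0.70 for all genes, a distance of 2.23. The 6 skeletal fibre markers summed to 5817 RPKM in the muscle mixture and 2112 RPKM in the tissue mixture, and their part in the result was not tested.

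The muscle mixture and muscle of day 240 are both longissimus dorsi, and the 27 genes differed widely in their ratio between them. The ratio of the muscle mixture to day 240 ran from 0.0984 (0.0869 to 0.111) for ENSSSCG00000007017 to 6.63 (5.85 to 7.54) for ENSSSCG00000014560. These are the shortest features of the set, with 344 and 336 nucleotides. At least 2-fold higher in the mixture were 9 genes, or 33.3%, against 70.8% of all genes. Among genes above the floor the share was 33.4%, about the same as in the 27 genes. With ENSSSCG00000014560 the 9 genes were ENSSSCG00000024365, ATP1B4, SRL, TMEM182, ITGB1BP2, ENSSSCG00000029000, ENSSSCG00000011265 and SMYD1, at 2.08 to 3.61 times the level of day 240.

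At least 2-fold lower in the muscle mixture were 5 genes, against 3.05% of all genes and 10.2% of those above the floor. Besides ENSSSCG00000007017 these were ENSSSCG00000025811 with a ratio of 0.249 (0.231 to 0.269), ENSSSCG00000024087 with 0.264 (0.261 to 0.267), ENSSSCG00000010359 with 0.346 (0.335 to 0.357) and NT5C1A with 0.433 (0.350 to 0.536). All but NT5C1A had no symbol. MYPN did not differ beyond counting error, with 1.02 (0.984 to 1.05). The median difference was 0.21 on the log2 scale for the 27 genes and 1.75 for all genes, so the 27 genes lay 1.54 below the median of all genes. Its direction depended on scaling, with -0.0097 for the same total and -1.56 for the median ratio, where 0 genes were 2-fold higher and 16 lower. Skeletal fibre markers summed to 5817 RPKM in the mixture and 14393 RPKM at day 240. Of these sums, TNNC2 made up 2369 and 10378 RPKM, while ACTA1 was near level with 3069 and 2998 RPKM. The markers of slow fibre and heart summed to 598 and 653 RPKM, and the 4 matched fibroblast markers of 6 listed to 1250 and 43.4 RPKM. The part of any of these in the result was not tested.

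The muscle mixture was above all 3 stages for 15 of the 27 genes, or 55.6%, against 76.2% of all genes. Among genes above the floor the share was 51.6%, also close to that of the 27 genes. The tissue mixture was above all 11 single-tissue libraries for 3, against 25.3% of all genes and 11% of those above the floor, which is close to the share of the 27 genes. These 3 were SRL, SMYD1 and ENSSSCG00000014560, with 1.40, 1.40 and 2.63 times the highest single tissue. Scaling decided these counts. With RPKM scaled to the same total they were 8 and 1 genes, and with scaling by the median ratio over features above 0 in every library 2 and 0 genes.

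**Figure D5:**
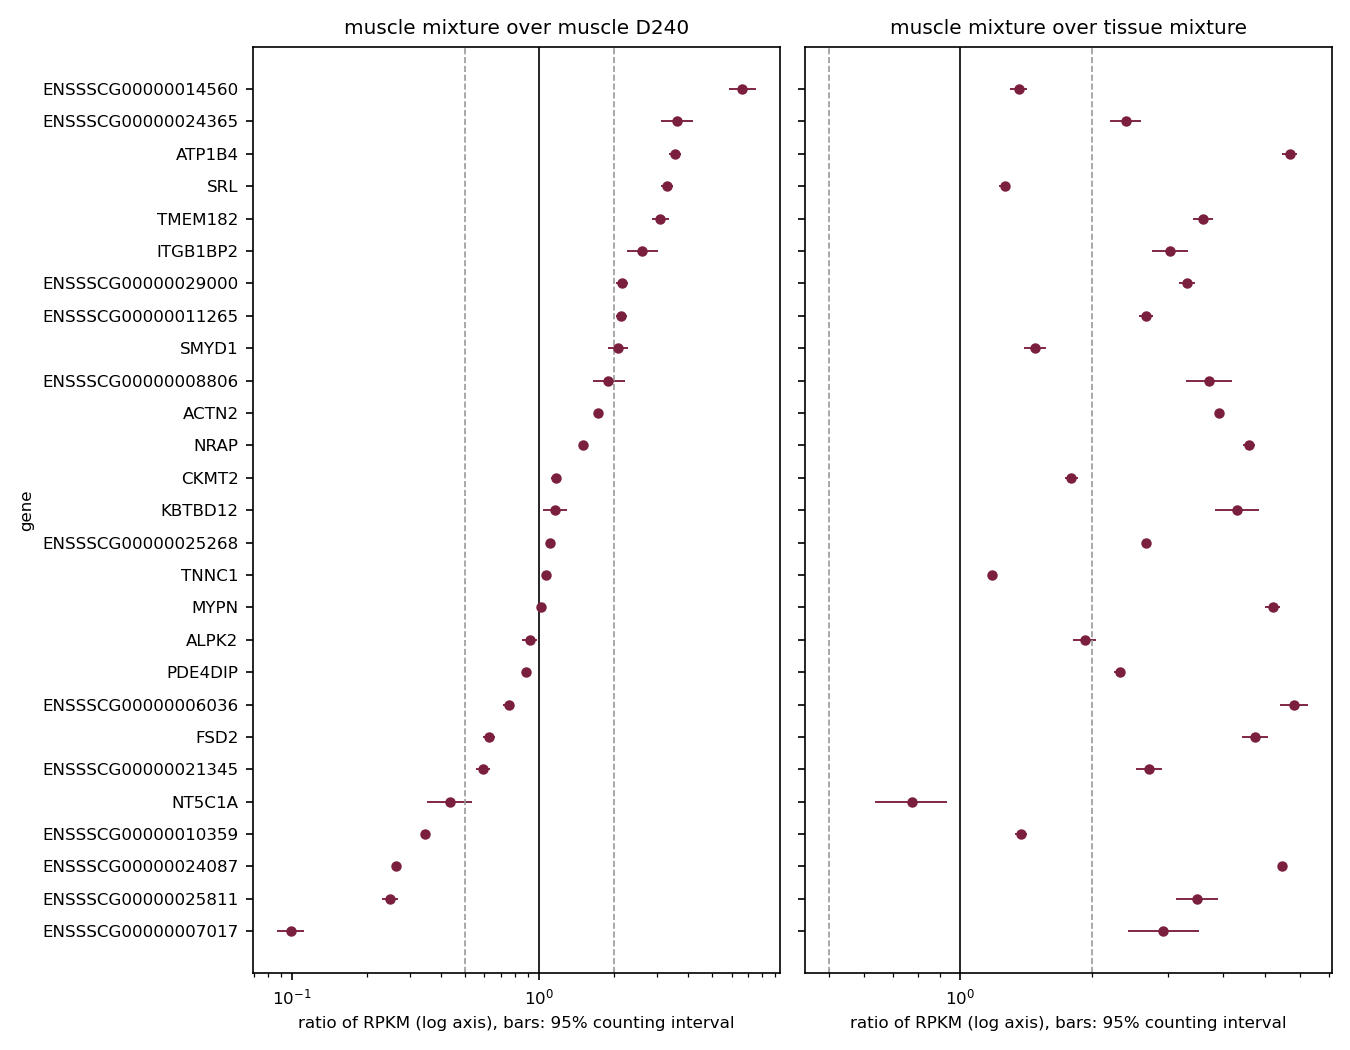
Ratio of RPKM (log axis) of the muscle mixture to muscle of day 240 (left) and to the tissue mixture (right) for the 27 genes, with bars for the 95% exact counting interval, a solid line at 1 and dashed lines at 2-fold. On the left the ratios run from 0.0984 to 6.63, and on the right all but NT5C1A are above 1.

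Most known striated muscle genes that could be matched did not belong to the set. Listed genes without a match could not be judged, and some could be among the 12 genes of the set without a symbol. Over 9 lists of such genes, 173 of 285 genes were matched to an identifier, and 147 had at least 1 RPKM in heart or muscle of day 240. Of these, 31 were at least 2-fold higher in heart, 67 were at least 2-fold lower and 49 were within 2-fold. The floor of 5 RPKM in both was met by 68 genes and the ratio by 50 of them. Of the 50, 34 were lost at 1 RPKM in another organ, 5 more by the ratio of the muscle stages, and 11 were kept.

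The thin and thick filament genes were mostly lost on the floor or the ratio, which 3 of 13 matched thin filament genes and 2 of 13 thick filament genes met together. Of these, 1 and 0 were kept. The 3 most abundant thin filament genes outside the set were the fast troponin C TNNC2 with 7.47 RPKM in heart and 10378 RPKM in muscle of day 240, the tropomyosin TPM1 with 1392 and 4947 RPKM, and the cardiac troponin T TNNT2 with 4075 and 6.07 RPKM. Of these 3, TPM1 met the ratio, and it had 325 RPKM in ovary. Of the thick filament, the myosin light chain MYL1 had 7.81 and 3798 RPKM, and the perinatal myosin MYH8 had 2.44 and 3695 RPKM, while MYH6 missed the ratio, with 5.88. The median of heart minus muscle was -2.48 on the log2 scale for the thin filament and -8.06 for the thick filament.

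Of the lists, the one of Z-disc and titin genes had the most genes kept, with 3 of 20 matched genes. Desmin (DES), the intermediate filament of muscle, had 298 and 515 RPKM in heart and muscle of day 240 but 58.7 RPKM in spleen. CSRP3, the muscle LIM protein, had 263 and 94.8 RPKM and no more than 0.224 RPKM in another organ, but its stages were 28.7-fold apart, with 327 RPKM at day 0 and 11.4 RPKM at day 30. Myotilin (MYOT) had 24.8 and 243 RPKM and missed the ratio. For calcium handling 1 of 19 matched genes was kept. Triadin (TRDN) met the ratio with 130.3 and 526 RPKM but had 9.10 RPKM in testis, and the fast skeletal genes CASQ1 and ATP2A1 had 3.03 and 0.326 RPKM in heart.

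In energy metabolism, 1 of 25 matched genes was kept. The muscle enolase ENO3, the lactate dehydrogenase LDHA and the glycogen phosphorylase PYGM had 273, 4.86 and 35.2 RPKM in heart against 1499, 1301 and 689 RPKM in muscle of day 240. Of 24 matched chaperones and protein turnover genes 2 were kept. The ubiquitin ligase TRIM63 had 315 and 205 RPKM and was lost on 1.302 RPKM in ovary, and the F-box genes FBXO40 and FBXO32 were lost on kidney and on the stages. Of 20 matched membrane genes 1 was kept, and dystrophin (DMD), ABCC9 and DTNA were lost on 18.4 RPKM in ovary, 11.03 RPKM in spleen and 1.92 RPKM in ovary.

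Of 25 matched transcription regulators MYPN alone was kept, which the Z-disc list also holds. Besides CSRP3, the cardiac ankyrin repeat protein ANKRD1 had 76.5 RPKM in heart but 1.18 RPKM in muscle of day 240, and the transcription factor MEF2C had 13.5 RPKM in ovary. Of 18 matched genes for secreted and signalling proteins 2 were kept, ALPK2 and TMEM182. LRRC39 and SH3BGR reached 24.5 and 6.86 RPKM in ovary, and LRRC2 was lost on the stages.

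The limits decided the membership of some genes by small margins. NT5C1A, with 5.42 RPKM at day 240, was just inside the floor and AKAP6, with 4.73 RPKM, just outside. The ratio limit of 5 lay in a wider gap. The nearest gene inside was TNNC1 with 3.67 and the nearest outside MYH6 with 5.88, whose reads in muscle are uncertain. ENSSSCG00000021345, with 0.964 RPKM in testis, was just inside the organ limit and ENSSSCG00000029846, with 1.06 RPKM in ovary, just outside. NT5C1A, with 3.90, was just inside the limit of the stages and LRRC2, with 4.11, just outside. The organ limit alone kept out 1031 of the 1058 genes that met the other limits, the floor alone 182 genes, the ratio alone 9 and the stages alone 7. Of the 1058 genes, 1016 had at least 1 RPKM in ovary, 1005 in lung, 1003 in testis, 1001 in kidney, 978 in spleen and 923 in liver. Relative to the summed RPKM of a library, the limit of 1 RPKM was stricter in ovary and testis than in spleen and liver. The part of this in the counts by organ was not tested.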

How the data were processed

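Total RNA was sequenced from 13 pig libraries, 1 per group, grouped by tissue and age per the labels. The authors mapped reads with TopHat (version 1.3.2 per the submitters' processing notes), assembled transcripts with Cufflinks, counted reads with htseq-count and deposited RPKM values of 32420 features. The genome build of these libraries and the total behind RPKM are not given in the sources used here. The authors' counting of reads that fit more than 1 gene is not stated, so near-identical genes such as myosins are uncertain.

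The deposited RPKM values move in steps of whole reads, so the library totals and feature lengths were recovered from the values alone. All 29462 features above 0 came out at whole reads, and none was farther than 1.1e-09 from an integer. On simulated RPKM of all 13 libraries and 32420 features, 13 of 13 totals and 22258 of 22362 lengths of features in at least 4 libraries were recovered. Reads served for intervals only, at 95% confidence. The floor of detection was set at 3 reads.

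Folds were taken as log2(RPKM + 0.1) with a limit of 2-fold. Shares over all genes were counted among Ensembl genes with at least 1 RPKM in either library. The members and the gene lists were chosen with earlier results of these data known. Because there were 27 members, each is named. From each gene list, up to 3 genes outside the set were named, the highest by the mean of heart and muscle of day 240, and the genes next to each limit. Alternatives were other limits, pseudocounts, fold limits and scaling. Names came from a table that paired 11654 of 21607 identifiers. Sequences and genome positions were not used here, so a planned search of promoters was not run. Python 3.11.15, pandas 2.3.3 and scipy 1.17.1 were used.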

Additional observations from a re-analysis of the deposited data

How the results depend on the processing

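Of 69 alternatives over all results, 43 kept a count within 1.5 times or the median within its spread. Among these are settings without the filter of 1 RPKM in either library. All 27 genes pass that filter, so these settings repeat the main value and are no separate check. Other pseudocounts changed no count. The set held 16 genes with the other organs under 0.5 RPKM, 41 under 2 RPKM and 42 with a floor of 2 RPKM. With the same total it held 28 genes, of which 22 were among the 27, and with the median ratio 32, of which 17 were. Genes at 1 RPKM in adipose tissue were 2, and 5 with the same total. They were 6 at a limit of 0.5 RPKM and 0 at 2 RPKM. Heart higher than muscle of day 240 was 4 genes at 1.5-fold, 1 at 3-fold and 1 with the median ratio. Heart lower was 2 genes at 3-fold and 11 with the median ratio. Day 240 higher than day 0 was 13 genes at 1.5-fold, 2 at 3-fold and 18 with the median ratio. Day 240 lower was 4 genes at 1.5-fold, 0 at 3-fold and 0 with the median ratio. The muscle mixture was 3-fold above the tissue mixture for 12 genes. The median log2 ratio of the muscle mixture to day 240 turned from 0.21 to -0.0097 with the same total and to -1.56 with the median ratio.

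After seeing the data, scaling was also tried on the counts over mixtures and stages. The tissue mixture was above all single tissues for 1 gene with the same total and 0 with the median ratio. The muscle mixture was above all stages for 8 and 2 genes. Day 240 was the highest stage for 10 and 19 genes. With the median ratio the muscle mixture was 2-fold above day 240 for 0 genes and 2-fold below for 16. Each scaling multiplied all genes of a library by the same factor. The distance of the 27 genes from the median of all genes could thus move only through the pseudocount. It lay between -1.62 and -1.54 for the mixture against day 240 and between 1.259 and 1.297 for day 240 against day 0. These narrow ranges follow from the scaling and are no separate check. The cause of the moves at other limits is the limit itself. No paired analysis was possible because each group was 1 library.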

Other observations

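The same limits were applied to the 10813 lncRNAs listed beside the Ensembl genes. All limits were met by 4 of them, TCONS_00323177, TCONS_00323179, TCONS_00323213 and TCONS_00654841. TCONS_00323177 had 218.8 RPKM in heart and 372, 626 and 893 RPKM in muscle at day 0, 30 and 240, but 14.6 RPKM in the tissue mixture and 75.5 RPKM in the muscle mixture. In the 6 limited organs it had at most 3 reads, and in adipose tissue 2 reads. TCONS_00323213 had 29.9 RPKM in heart, 87.7, 23.8 and 76.6 RPKM at the 3 stages and 1.10 and 17.1 RPKM in the mixtures. TCONS_00323179 and TCONS_00654841 were lower, with 6.18 and 7.17 RPKM in heart and 13.4 and 6.05 RPKM in muscle of day 240. In all 4 the muscle mixture was below muscle of day 240 in the values as deposited. The share of all lncRNAs below it was not counted, and other scaling was not tried on lncRNAs.

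Across the 27 genes, the length of the features and their difference between muscle mixture and day 240 had a Spearman correlation of -0.11.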
